A study of Mus musculus with 15 samples.

Results

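The genes described here are 9 that link the DNA damage regulator p53 to cell death: the surface receptors Fas, Tnfrsf10b and Eda2r, the initiator caspase gene Casp8, the scaffold genes Pidd1 and Apaf1, the nuclease gene Aen and the membrane protein genes Perp and Ei24. They were taken by symbol from the deposited table, which held all 9 among its 21878 genes. The table gives FPKM (fragment counts scaled by gene length and by the library's assigned reads) in 15 liver libraries from 8-week-old male C57BL/6J mice, taken 1 day after a single intraperitoneal injection. Per the labels, 5 libraries followed normal saline, 5 followed cisplatin (10 mg/kg, 1 mg/mL in 0.9% saline), a platinum compound that crosslinks DNA, and 5 followed doxorubicin (10 mg/kg, 2 mg/mL in sterile water), an anthracycline that poisons topoisomerase II. The doxorubicin mice thus differed in vehicle from both other groups, and the saline volume is not given as a number. One doxorubicin column bears a number that no label has, and is called the unnumbered doxorubicin library. The labels do not state that each library is a separate mouse, so p-values measure the spread between these libraries.

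p53 is a transcription factor that is stabilized when DNA is damaged and that raises genes of cell cycle arrest, repair and death. Death can start at the cell surface, where a ligand clusters receptors such as FAS and the TRAIL receptor TNFRSF10B, and the adaptor FADD brings caspase-8 to them. It can also start inside the cell, where cytochrome c released from mitochondria assembles APAF1 into the apoptosome, which activates caspase-9. Hepatocytes carry FAS and are known for their sensitivity to its ligand.

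The libraries held 27565957 to 34700317 reads assigned to genes after saline, 25256043 to 31024726 after cisplatin and 37603993 to 50727121 after doxorubicin. The doxorubicin libraries were the deepest, with no overlap, so depth cannot be told apart from that drug. Saline 2 stood apart, being the highest or lowest of its group in 73.0% of 10552 genes, against 23.9 to 42.4% for the other saline libraries. Hepatocyte markers were abundant in every library: the summed level of 8 markers was 60520 to 69580 FPKM after saline, 63090 to 68680 after cisplatin and 49870 to 60230 after doxorubicin. The labelled tissue thus carried its defining markers.

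Of the 9 genes, 4 rose after cisplatin compared with saline, namely Aen, Tnfrsf10b, Eda2r and Apaf1, and 0 fell. After doxorubicin the same 4 and Fas rose, and 0 fell. Doxorubicin exceeded cisplatin in 2, Fas and Eda2r. Casp8, Pidd1, Perp and Ei24 passed the test in no comparison. These counts come from a limma fit of log2(FPKM + 1) over all 17788 genes above 0, with Benjamini-Hochberg adjusted p under 0.05. In that fit 3.26% of genes rose and 3.43% fell after cisplatin, and 9.91% rose and 10.6% fell after doxorubicin. Between the drugs, 6.68% of genes were higher and 6.32% lower after doxorubicin. At an unadjusted p under 0.05 the counts over the 9 genes were the same, with 0 lower in each comparison, and limma-voom on reads recovered from the FPKM values also gave 0 lower. The median difference over the 9 genes was 0.18, 0.53 and 0.11 in these comparisons, and over all genes it lay at or within 0.0042 of 0.

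The values given for single genes come from the fit over the 10552 genes that reached 1 FPKM in 5 or more libraries, which held 8 of the 9. Apaf1 reached 1 FPKM in only 4 libraries. Tnfrsf10b and Eda2r passed through drug libraries alone, as none of their saline libraries reached 1 FPKM. These 3 genes are therefore given from the fit without that filter. In the filtered fit 6.08% of genes rose after cisplatin, 14.4% rose after doxorubicin and 9.0% were higher after doxorubicin than after cisplatin, while 5.0%, 17.2% and 11.4% were lower. The groups did not overlap, with the first higher, for 5.33%, 10.5% and 6.9% of these genes in the same order. Differences on this scale understate the fold change of genes with low FPKM, so ratios of mean FPKM are given as well.

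**Figure D1:**
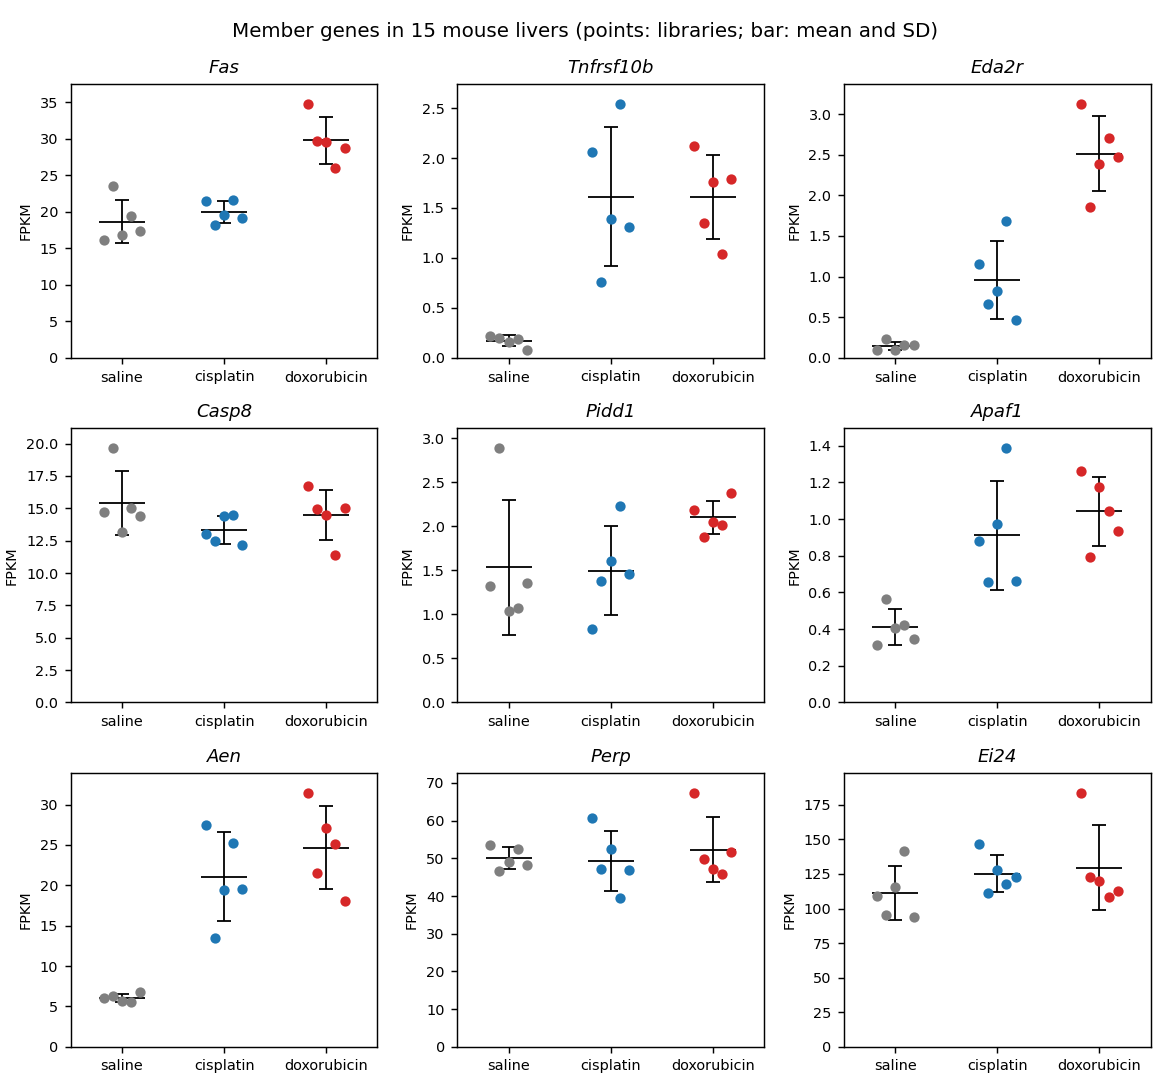
FPKM (vertical axes, each from 0) of the 9 genes in saline, cisplatin and doxorubicin livers; points are libraries, and the bar and whiskers give mean and SD (n = 5). Tnfrsf10b, Eda2r, Apaf1 and Aen lie above all saline points after either drug, Fas does so after doxorubicin, and the other genes overlap.

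Eda2r encodes the receptor for the EDA-A2 form of ectodysplasin. It belongs to the TNF receptor family and lacks the death domain that FAS and TNFRSF10B carry. Its level was 0.102, 0.230, 0.0985, 0.156 and 0.153 FPKM in saline libraries 1 to 5. After cisplatin it was 1.16, 0.666, 0.821, 1.68 and 0.469 FPKM. After doxorubicin it was 3.12, 1.86, 2.38 and 2.71 FPKM in libraries 1 to 4 and 2.47 in the unnumbered one. The 3 groups did not overlap: every cisplatin library was above every saline library, and every doxorubicin library above every cisplatin library. The mean ratio to saline was 6.48 after cisplatin and 17.0 after doxorubicin. In the fit without filter these rises were 0.74 ± 0.14 (SE, limma adjusted p = 0.00402) and 1.60 ± 0.14 (adjusted p = 2.78e-06). The excess of doxorubicin over cisplatin was 0.86 ± 0.14 (adjusted p = 0.000736), a ratio of means of 2.62. The saline level rested on 13 to 31 reads per library, and the doxorubicin level on 394 to 759.

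Eda2r spans 43.4 kb of the X chromosome (GRCm38, 97333837 to 97377234) and had the largest ratio to saline of the 9 genes after doxorubicin. Its promoter is shown with those of Fas, Aen and Ei24 because these genes differ in response: Eda2r and Aen rose after both drugs, Fas rose after doxorubicin, and Ei24 passed no test. Each stretch runs from 250 bases before to 50 bases after the annotated start (RefSeq, GRCm38.p6), 5′ to 3′ on the gene's strand. Capitals mark the best match to the p53 consensus site of 20 letters where it had at most 3 mismatches, or else 1 unit of 10 letters, of which the consensus has 2, without mismatch. The consensus reads the same on both strands, and its units were joined without a spacer. For Eda2r (chrX:97377160-97377459, minus strand), Fas (chr19:34290409-34290708, plus strand), Aen (chr7:78895677-78895976, plus strand) and Ei24 (chr9:36797285-36797584, minus strand) the sequences were as follows.
Eda2r: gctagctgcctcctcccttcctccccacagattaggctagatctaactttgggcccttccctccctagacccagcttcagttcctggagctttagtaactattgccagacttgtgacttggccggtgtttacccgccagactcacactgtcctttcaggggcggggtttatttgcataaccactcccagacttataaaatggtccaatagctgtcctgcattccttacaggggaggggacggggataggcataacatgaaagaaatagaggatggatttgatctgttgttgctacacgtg
Fas: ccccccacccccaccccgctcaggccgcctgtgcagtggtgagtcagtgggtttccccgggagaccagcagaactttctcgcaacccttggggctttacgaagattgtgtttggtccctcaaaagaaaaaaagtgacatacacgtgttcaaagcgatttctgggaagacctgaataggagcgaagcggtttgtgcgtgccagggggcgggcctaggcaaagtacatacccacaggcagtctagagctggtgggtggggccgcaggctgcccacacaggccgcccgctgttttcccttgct
Aen: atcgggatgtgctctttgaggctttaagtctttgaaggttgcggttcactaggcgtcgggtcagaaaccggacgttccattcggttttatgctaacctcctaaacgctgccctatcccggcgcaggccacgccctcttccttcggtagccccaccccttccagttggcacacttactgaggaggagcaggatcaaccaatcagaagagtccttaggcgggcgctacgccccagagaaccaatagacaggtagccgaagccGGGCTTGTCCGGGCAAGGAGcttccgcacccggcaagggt
Ei24: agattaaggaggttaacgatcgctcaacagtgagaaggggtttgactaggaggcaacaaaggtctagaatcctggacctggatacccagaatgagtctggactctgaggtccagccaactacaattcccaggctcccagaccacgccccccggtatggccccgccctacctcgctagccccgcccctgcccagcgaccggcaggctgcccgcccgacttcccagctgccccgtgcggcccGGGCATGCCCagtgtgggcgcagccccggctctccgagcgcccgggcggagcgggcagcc

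In Aen the 20 letters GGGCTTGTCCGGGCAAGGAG began 10 bases after the start with 3 mismatches, and their first 10 letters matched fully. A match of that grade stood in 6.29% of 32851 tabled promoters of the same length. Ei24 held the full unit GGGCATGCCC, 10 bases before its start, as 8.36% of all promoters held one. The best 20 letters of Eda2r and Fas had 6 and 5 mismatches, and neither promoter held a full unit. Among the other promoters matched, Pidd1 and Apaf1 had 5 mismatches at best and Casp8 had 4, a grade that 30.2% of promoters reached. The 7 matched genes had 8 promoters, 2 of them of Aen. The shorter core CATG was present in 61.1% of all promoters and in those of Eda2r, Apaf1, Ei24 and Casp8. These are matches of letters only, and sites outside the windows were not searched.

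Tnfrsf10b encodes the death receptor for TRAIL in the mouse, also known as DR5 (chromosome 14, 69767472 to 69784411). Its level was 0.220, 0.201, 0.160, 0.190 and 0.0836 FPKM in saline libraries 1 to 5. After cisplatin it was 2.07, 0.760, 1.39, 2.54 and 1.31 FPKM, and after doxorubicin 2.12, 1.35, 1.76 and 1.04 in libraries 1 to 4 and 1.79 in the unnumbered one. Both drug groups lay above all saline libraries and overlapped each other. The ratio of means to saline was 9.44 after cisplatin and 9.42 after doxorubicin. Without the filter the rise was 1.12 ± 0.16 (SE, limma adjusted p = 0.00063) and 1.14 ± 0.16 (adjusted p = 0.000143). Between the drugs the difference was 0.02, with a 95% interval from -0.31 to 0.36 (adjusted p = 0.951). The saline values rested on 8 to 21 reads per library and the cisplatin values on 75 to 204.

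The 2 receptors with low levels stood in different proportion after the 2 drugs. Within a library, the FPKM of Eda2r divided by that of Tnfrsf10b ran from 0.358 to 0.876 after cisplatin and from 1.35 to 2.61 after doxorubicin, without overlap. The mean log2 ratio differed by 1.44 (exact two-sided permutation p = 0.00794, the smallest that 5 against 5 libraries can give). After saline the ratio ran from 0.465 to 1.83 and overlapped both. This ratio and 3 others were chosen after the values were seen, and adjustment over the 12 tests made gave 0.0119. That adjustment does not cover the choice of the genes, so these p-values only describe the separation.

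**Figure D2:**
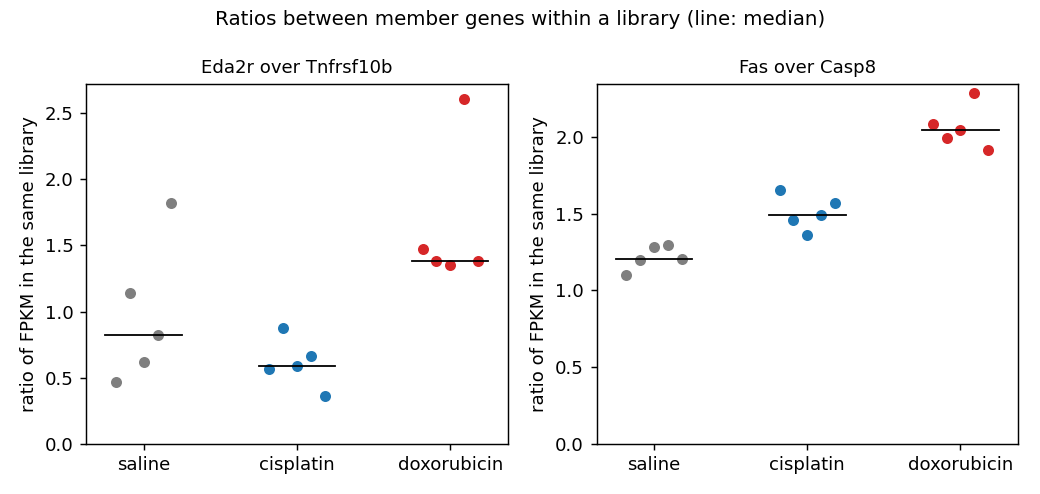
Ratio of FPKM between 2 genes in the same library (vertical axes, from 0), with the line at the group median (n = 5). Eda2r over Tnfrsf10b separates doxorubicin (1.35 to 2.61) from cisplatin (0.358 to 0.876), and Fas over Casp8 separates all 3 groups.

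Fas encodes the receptor of FAS ligand (chromosome 19, 34290647 to 34327775) and was the most abundant of the receptors here. Its level was 16.2, 23.5, 16.8, 19.4 and 17.4 FPKM in saline libraries 1 to 5. After cisplatin it was 21.5, 18.2, 19.6, 21.7 and 19.1 FPKM, and after doxorubicin 34.8, 29.7, 29.6 and 26.01 in libraries 1 to 4 and 28.8 in the unnumbered one. The doxorubicin libraries lay above all others, while cisplatin and saline overlapped. Its rise after doxorubicin was 0.65 ± 0.10 (SE, limma adjusted p = 0.000146), a ratio of means of 1.60, and the excess of doxorubicin over cisplatin was 0.55 ± 0.10 (adjusted p = 0.00115). After cisplatin the difference was 0.11, with a 95% interval from -0.11 to 0.32 (adjusted p = 0.563).

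Many markers of infiltrating and resident myeloid cells, like Fas, were higher after doxorubicin. After doxorubicin 3 of 3 tested neutrophil markers, 4 of 5 monocyte markers and 5 of 7 Kupffer cell markers rose, where 14.4% of all tested genes did. The monocyte marker Ly6c2 passed the filter through drug libraries alone. Without the filter 6 of 8, 6 of 8 and 5 of 8 rose after doxorubicin, where 9.91% of all genes did. After cisplatin 0 of each list rose in either limma fit. At an unadjusted p under 0.05, 1 Kupffer cell marker was higher after cisplatin and 0 of the other lists were, and limma-voom called 0 of all 3 lists. The summed level of 8 neutrophil markers was 4.502 to 8.88 FPKM after saline, 3.06 to 9.80 after cisplatin and 26.6 to 41.3 after doxorubicin. The defining marker Ly6g was at 0 in all saline libraries, and averaged 0.0950 FPKM after cisplatin and 0.0519 after doxorubicin. Neither Ly6g nor Camp, another of the 8, passed the test in any comparison of the fit without filter. The tested Kupffer cell markers that did not pass after doxorubicin were Clec4f and Vsig4 (limma adjusted p = 0.157 and 0.215). Clec4f averaged 19.4 FPKM after doxorubicin against 23.4 after saline, and Vsig4 8.26 against 6.29. For 8 Kupffer cell markers the sums were 60.2 to 105, 68.5 to 94.2 and 133 to 212 FPKM, and for 8 monocyte markers 148 to 197, 174 to 206 and 196 to 248. Most of the monocyte sum was F10, the coagulation factor X gene, which hepatocytes also express (means of 176, 185 and 202 FPKM) and which passed no test. Without F10, a sum added after seeing the data, the other 7 monocyte markers came to 4.49 to 6.51, 5.53 to 7.60 and 14.7 to 31.0 FPKM. Of 11 T and NK cell markers in the table only 2 were tested, and 0 of them changed after either drug compared with saline, also at an unadjusted p under 0.05. Without the filter, a count added after seeing the data, the NK cell receptor gene Ncr1 rose after cisplatin (limma adjusted p = 0.0306), and Ncr1 and Gzmb, the granzyme B gene, rose after doxorubicin (adjusted p = 0.00551 and 0.04). Limma-voom called 0 of 11 after cisplatin and 1 of 11, higher, after doxorubicin, and the sums of the 11 were 3.71 to 8.56, 4.32 to 6.30 and 5.67 to 7.18 FPKM. Among the doxorubicin libraries the neutrophil sum was highest in doxorubicin 4, the Kupffer cell sum in doxorubicin 2 and the sum of 8 monocyte markers in doxorubicin 3. Fas was highest in doxorubicin 1 and lowest in doxorubicin 4. The part of these cells in the Fas difference was not tested. In whole liver, fewer cells of a type and less RNA per cell cannot be told apart.

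Of the ligand genes of the 3 receptors, Eda passed the test and Fasl and Tnfsf10 did not. Fasl, whose product triggers FAS, had a mean of 0.144 ± 0.0464 FPKM with saline, 0.179 ± 0.126 with cisplatin and 0.106 ± 0.0606 with doxorubicin (SD, 5 libraries each), on 4 to 20 reads per library. Tnfsf10, the TRAIL gene, was 0.592 ± 0.146, 0.566 ± 0.174 and 0.529 ± 0.181 FPKM. Neither passed the test in any comparison (limma adjusted p from 0.426 to 0.968).

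Eda, the ligand gene whose A2 form binds the Eda2r product, was lower after both drugs. Its level was 0.514, 0.407, 0.686, 0.673 and 0.461 FPKM in saline libraries 1 to 5, and 0.0290, 0.0324, 0.0282, 0.0159 and 0.0458 after cisplatin. After doxorubicin it was 0.274, 0.173, 0.271 and 0.268 FPKM in libraries 1 to 4 and 0.118 in the unnumbered one. The 3 groups did not overlap, with saline highest and cisplatin lowest. The cisplatin libraries held 2 to 7 reads of Eda each, against 57 to 116 after saline and 23 to 69 after doxorubicin. In the fit without filter Eda fell by 0.58 ± 0.05 with cisplatin (SE, limma adjusted p = 1.66e-05) and fell by 0.34 ± 0.05 with doxorubicin (adjusted p = 0.000345), and the saline mean was 18.1 and 2.48 times the drug mean. The doxorubicin level was above the cisplatin level by 0.24 ± 0.05 (adjusted p = 0.00669). Eda spans 425 kb of the X chromosome (99975606 to 100400760), against 43.4 kb for Eda2r.

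**Figure D3:**
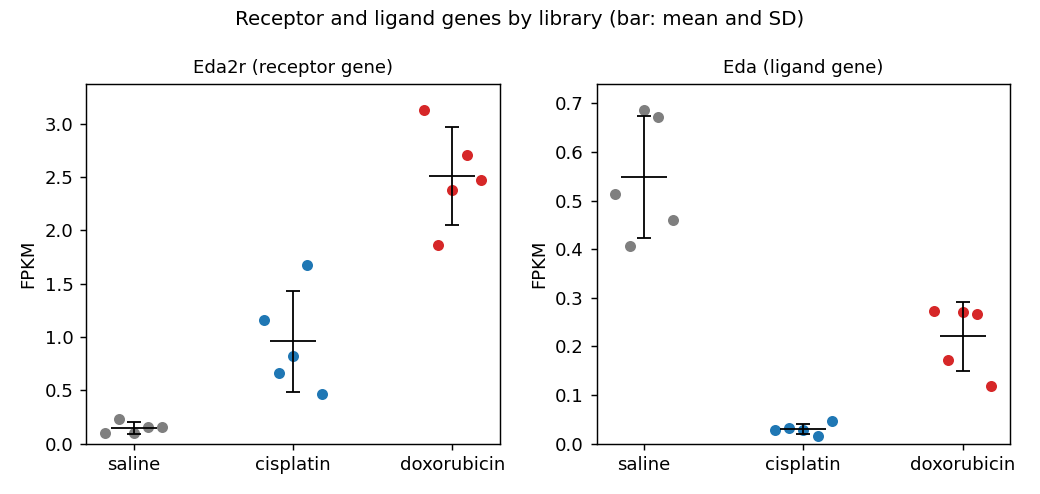
FPKM (vertical axes, from 0) of the receptor gene Eda2r and the ligand gene Eda in each library, with mean and SD (n = 5). Eda2r is highest after doxorubicin (1.86 to 3.12 FPKM), whereas Eda is highest after saline and lowest after cisplatin (0.0159 to 0.0458 FPKM).

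Casp8 encodes the initiator caspase that death receptors recruit (chromosome 1, 58795233 to 58847503). Its level ran from 13.1 to 19.6 FPKM after saline (median 14.7), from 12.2 to 14.5 after cisplatin (median 13.0) and from 11.4 to 16.7 after doxorubicin (median 14.9). The groups overlapped. The difference from saline was -0.19 (95% interval -0.42 to 0.05, limma adjusted p = 0.308) after cisplatin and -0.08 (-0.31 to 0.15, adjusted p = 0.623) after doxorubicin. Fas divided by Casp8 in the same library ran from 1.10 to 1.29 after saline, 1.36 to 1.66 after cisplatin and 1.91 to 2.29 after doxorubicin, without overlap (exact two-sided permutation p = 0.00794 for each of the 3 pairs, 0.0119 adjusted over 12 ratio tests). The choice of Fas and Casp8 also followed the values, so these p-values only describe the separation. Saline 2, the highest saline library for each of these genes, lay at 1.20 and within its group for this ratio.

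Fadd, the adaptor between these receptors and caspase-8, had means of 2.66 ± 0.649 (saline), 3.05 ± 0.355 (cisplatin) and 2.75 ± 0.353 (doxorubicin) FPKM (SD, n = 5 each) and passed the test in no comparison (limma adjusted p from 0.407 to 0.777). Cflar, which encodes the caspase-8 inhibitor c-FLIP, averaged 14.1 ± 1.95 FPKM (saline), 14.2 ± 2.59 (cisplatin) and 20.1 ± 2.95 (doxorubicin). Doxorubicin raised it by 0.48 ± 0.13 (SE) over saline, with a limma adjusted p of 0.00873, and by 0.48 over cisplatin, with an adjusted p of 0.0138. Many markers of the myeloid lists described above were also higher after doxorubicin, as was Fas.

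Apaf1, the core of the apoptosome, spans 93.4 kb of chromosome 10 (90989311 to 91082743), the longest of the 9 genes. Its level was 0.311, 0.566, 0.406, 0.420 and 0.347 FPKM in saline libraries 1 to 5. After cisplatin it was 0.880, 0.658, 0.975, 1.39 and 0.664 FPKM, and after doxorubicin 1.26, 0.792, 1.18 and 1.04 in libraries 1 to 4 and 0.933 in the unnumbered one. All drug libraries lay above all saline libraries. The ratio of means was 2.22 after cisplatin and 2.54 after doxorubicin. In the fit without filter these rises were 0.43 ± 0.10 (SE, limma adjusted p = 0.0155) and 0.53 ± 0.10 (adjusted p = 0.00133), each with an exact permutation p of 0.00794. Between the drugs the difference was 0.10 (95% interval -0.11 to 0.31, adjusted p = 0.582). Each library held 58 to 417 reads of Apaf1.

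Neither partner of Apaf1 passed the test against saline. Cycs, the gene of cytochrome c, averaged 29.7 ± 2.45 (saline), 33.96 ± 3.15 (cisplatin) and 31.7 ± 3.82 (doxorubicin) FPKM (SD, n = 5 each) and passed the test in no comparison (limma adjusted p from 0.227 to 0.514). Casp9, the caspase that the apoptosome activates, averaged 4.46 ± 0.436, 5.16 ± 0.952 and 3.58 ± 0.375 FPKM in the same order. It passed no test against saline (adjusted p = 0.363 and 0.0768), and was lower after doxorubicin than after cisplatin by a difference of -0.42 ± 0.11 (SE, adjusted p = 0.00985).

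Pidd1 encodes the scaffold that joins with CRADD and caspase-2 (chromosome 7, 141438113 to 141447565). Its level was 1.33, 2.88, 1.03, 1.077 and 1.35 FPKM in saline libraries 1 to 5. After cisplatin it was 0.830, 1.37, 1.61, 2.22 and 1.45 FPKM, and after doxorubicin 2.18, 1.88, 2.05 and 2.02 in libraries 1 to 4 and 2.37 in the unnumbered one. Saline 2 lay above every doxorubicin library, and the other saline libraries lay below all of them. With all libraries the difference after doxorubicin was 0.33 (95% interval -0.01 to 0.68, limma adjusted p = 0.134), and after cisplatin -0.00 (-0.35 to 0.35, adjusted p = 0.997). Without saline 2 the doxorubicin difference was 0.50 ± 0.12 (SE, adjusted p = 0.00577), and the excess over cisplatin was 0.33 (adjusted p = 0.0463, against 0.17 with all libraries).

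The 2 partners of Pidd1 passed the test in no comparison. Casp2 averaged 3.10 ± 0.492 (saline), 3.001 ± 0.481 (cisplatin) and 3.25 ± 0.382 (doxorubicin) FPKM, and Cradd averaged 9.44 ± 0.719, 9.59 ± 0.797 and 8.90 ± 1.02 FPKM in the same order (SD, n = 5 each; limma adjusted p from 0.463 to 0.918).

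Aen encodes a nuclease that is induced by p53 and takes part in the breakdown of DNA in dying cells (chromosome 7, 78895927 to 78911209). Its level was 6.00, 6.33, 5.66, 5.58 and 6.78 FPKM in saline libraries 1 to 5. After cisplatin it was 27.5, 13.5, 19.5, 25.2 and 19.6 FPKM, and after doxorubicin 31.4, 21.5, 27.2 and 25.1 in libraries 1 to 4 and 18.1 in the unnumbered one. Both drug groups lay far above the narrow saline range and overlapped each other. The rise was 1.61 ± 0.16 (SE, limma adjusted p = 1.27e-05) after cisplatin, a ratio of means of 3.47. After doxorubicin it was 1.84 ± 0.16 (adjusted p = 7.02e-07), a ratio of 4.06. The difference between the drugs was 0.23 (95% interval -0.11 to 0.58, adjusted p = 0.353). At 379 to 3871 reads per library, Aen was the most deeply read of the genes that rose after both drugs.

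Perp, a membrane protein gene of epithelia and a p53 target (chromosome 10, 18845071 to 18857073), and Ei24, which encodes a membrane protein of the endoplasmic reticulum (chromosome 9, 36779153 to 36797334), were the most abundant of the 9. Perp ran from 46.6 to 53.6 FPKM after saline (median 49.0), from 39.4 to 60.8 after cisplatin (median 47.3) and from 45.8 to 67.3 after doxorubicin (median 49.7). Its differences from saline were -0.03 (95% interval -0.28 to 0.22, limma adjusted p = 0.906) and 0.05 (-0.19 to 0.30, adjusted p = 0.771). For Ei24 the ranges were 93.8 to 142, 111 to 147 and 108 to 184 FPKM, with medians of 109, 123 and 120. Its differences from saline were 0.18 (-0.12 to 0.48, adjusted p = 0.468) and 0.21 (-0.09 to 0.51, adjusted p = 0.288). The highest value of either gene was in doxorubicin 1, and the other doxorubicin libraries lay within the cisplatin range, except doxorubicin 4 for Ei24, at 108 FPKM against a cisplatin minimum of 111.

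**Figure D4:**
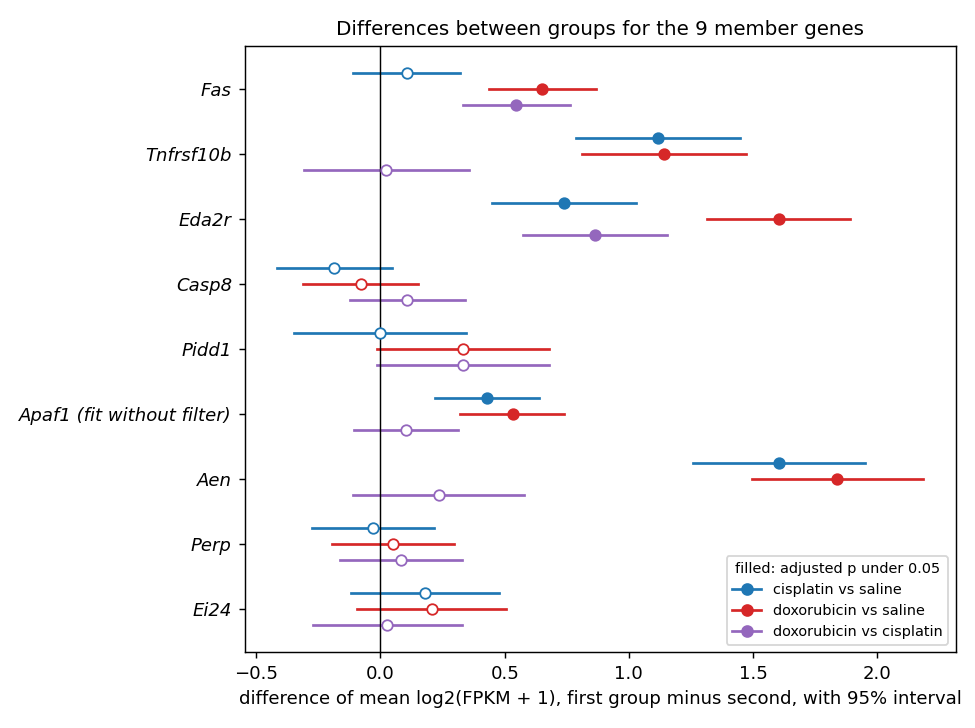
Differences of mean log2(FPKM + 1) between groups (horizontal axis) for the 9 genes, with 95% intervals. Filled points have adjusted p under 0.05, and all genes but Apaf1 are shown from the filtered fit. Tnfrsf10b and Eda2r passed that filter through drug libraries alone, and the same of their points would be filled without it. Aen, Tnfrsf10b, Eda2r and Apaf1 are right of 0 for both drugs, Fas for doxorubicin alone among the drugs, and Eda2r and Fas also differ between the drugs.

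In saline liver the mean levels per length ran in the order Ei24 (111 FPKM), Perp (50.01), Fas (18.7), Casp8 (15.4), Aen (6.07), Pidd1 (1.54), Apaf1 (0.410), Tnfrsf10b (0.171) and Eda2r (0.148). The ranges of neighbours overlapped for Fas and Casp8 and for Tnfrsf10b and Eda2r. The 4 genes that rose after both drugs had saline means of 6.07 FPKM or less, as had Pidd1, and of the 4 more abundant genes Fas passed a test. After doxorubicin Fas (29.8 FPKM) and Aen (24.7) overlapped in range, and Eda2r (2.51) overlapped with Pidd1 (2.10) above Tnfrsf10b (1.61) and Apaf1 (1.04). After cisplatin the ranges of Tnfrsf10b, Pidd1, Eda2r and Apaf1 overlapped from each neighbour to the next.

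Libraries of 1 group differed in the levels of these genes. Doxorubicin 1 was the highest of its group for 8 of the 9 genes, all but Pidd1, against 21.9% of all tested genes, and also for the p53 targets Cdkn1a (124 FPKM against 62.1 to 92.0 in the other 4) and Mdm2 (59.5 against 31.5 to 46.3). It was also the deepest library, at 50727121 reads. Cisplatin 4 was the highest of its group for 6, including all 3 receptors, and for 37.3% of all tested genes. It had the highest Mdm2 level (58.0 FPKM against 17.3 to 30.4), while Cdkn1a, Phlda3 and Ccng1 were highest in cisplatin 1. Cisplatin 4 was the shallowest library, at 25256043 reads. Cisplatin 2 was the lowest of its group for 5, among them Tnfrsf10b, Aen and Apaf1, and for 39.6% of all tested genes. It had the lowest Mdm2 (17.3), Phlda3 (7.23) and Ccng1 (39.1 FPKM), but not the lowest Cdkn1a (34.7 against 33.6 in cisplatin 3). Doxorubicin 4 was the lowest of its group for 5, among them all receptors but Eda2r, and for 13.9% of all tested genes.

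**Figure D5:**
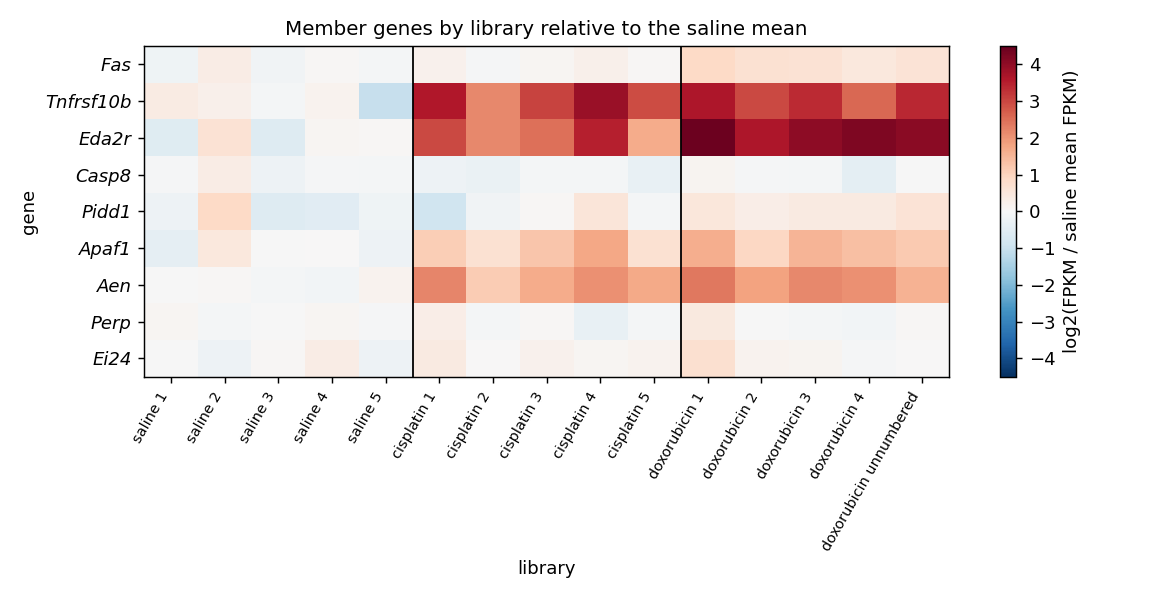
Colour gives log2 of each library's FPKM over the saline mean for the 9 genes (rows) in 15 libraries (columns). Tnfrsf10b and Eda2r have the deepest red after the drugs, Apaf1 and Aen a paler red, and the rows of Casp8, Perp and Ei24 stay near white.

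Among other genes of the pathway, Trp53, the p53 gene itself, averaged 18.9 ± 2.91 (saline), 17.2 ± 2.25 (cisplatin) and 19.2 ± 1.38 (doxorubicin) FPKM (SD, n = 5 each) and passed the test in no comparison (limma adjusted p from 0.339 to 0.853). Of 7 tested genes in the list of p53 and its regulators, 1 rose and 0 fell after each drug. This was Mdm2, the ubiquitin ligase gene of the p53 feedback loop, by 1.03 (adjusted p = 0.0144) and 1.499 (adjusted p = 0.000278). Over all tested genes 6.08% rose after cisplatin and 14.4% after doxorubicin, so 1 of 7 was near the share after doxorubicin. Of 20 arrest and stress targets, 10 rose and 1 fell after cisplatin, and 10 rose and 2 fell after doxorubicin, led by Phlda3 (3.28 and 3.82) and Ccng1 (1.94 and 2.17). Among those that rose, Phlda3 and Zmat3 reached at most 0.544 and 0.901 FPKM after saline. Both thus passed the filter through drug libraries alone. Their rises against saline were lost in 0 of 24 alternative fits, which included the fit without filter. Between the drugs, 2 of the 20 were higher after doxorubicin, Zmat3 by 0.40 (adjusted p = 0.00383) and Cdkn1a by 0.91 (adjusted p = 0.0134), and 1 was lower, Sesn1, by a difference of -0.33 (adjusted p = 0.011). The median difference of this list was 0.43 after cisplatin and 0.41 after doxorubicin, against -0.01 and -0.04 over all tested genes.

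The BCL2 family sets the release of cytochrome c from mitochondria. Of 15 tested BCL2 family genes, 3 rose and 0 fell after cisplatin, and 3 rose and 3 fell after doxorubicin, where 14.4% of all tested genes rose and 17.2% fell. The p53-induced killer genes Bax and Bbc3 rose after both drugs, Bax by 0.93 (limma adjusted p = 0.00149) and 1.28 (adjusted p = 2.29e-05), and Bbc3, the PUMA gene, by 0.67 (adjusted p = 0.000558) and 0.73 (adjusted p = 6.84e-05). Bmf, a BH3-only gene, was 1.80 to 3.51 FPKM after cisplatin and 0.595 to 0.860 after doxorubicin, and doxorubicin was lower by a difference of -1.02 (adjusted p = 4.77e-05). After saline it was 1.10 to 2.13 FPKM, overlapping cisplatin. It fell by 0.57 after doxorubicin (adjusted p = 0.00329) and rose by 0.46 after cisplatin (adjusted p = 0.032), a call that ended in 8 of 24 alternative fits, among them those without saline 1, 3 or 4 or cisplatin 2, 3 or 4, with adjusted p up to 0.0781.

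Among 19 tested caspases and death adaptors, 3 rose and 0 fell after cisplatin, and 5 rose and 1 fell after doxorubicin. Endog, a mitochondrial nuclease gene, rose by 1.01 (limma adjusted p = 0.000155) and 1.03 (adjusted p = 3.03e-05), from 22.5 ± 1.48 FPKM to 47.0 ± 8.69 and 47.9 ± 10.1 (SD, n = 5 each). After doxorubicin Diablo, which encodes an antagonist of the inhibitors of apoptosis, rose by 0.38 (adjusted p = 0.00953), and the caspase gene Casp6 fell by 0.53 (adjusted p = 0.00489). Of 9 tested inhibitors of apoptosis, 0 rose and 0 fell after either drug in the limma fit. At an unadjusted p under 0.05, 1 of them was lower after each drug, and limma-voom called 0 of 11 after cisplatin and 1 of 11, lower, after doxorubicin.

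In the list of death ligands and other members of the receptor family, 7 of 21 genes were tested. After doxorubicin 3 rose and 1 fell: Tnfrsf1a, a receptor of tumor necrosis factor with a death domain, by 0.97 (limma adjusted p = 1.31e-05), the TWEAK receptor gene Tnfrsf12a by 0.54 (adjusted p = 0.00216) and the lymphotoxin receptor gene Ltbr by 0.33 (adjusted p = 0.00244). Tnfrsf1a went from 28.7 ± 4.91 FPKM after saline to 56.6 ± 5.44 after doxorubicin (SD, n = 5 each). It was also higher with doxorubicin than with cisplatin, by 0.66 (adjusted p = 0.000786), as was Fas. With cisplatin 0 rose and 1 fell, Tnfrsf1b, by a difference of -0.42 (adjusted p = 0.0407), a call that ended in 13 of 24 alternative fits.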

How the data were processed

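Per the submitters' processing notes, Trim Galore 0.4.1, HISAT2 2.0.1, featureCounts 1.4.6 and edgeR were used on build GRCm38 (mm10); strand setting and annotation release are not given in the sources used here. RNA was selected by poly(T), per the labels' protocols. The authors deposited FPKM per gene and library, and 0 columns were left unused. Of 17788 genes above 0, all 17788 gave whole reads within 0.001 of a read from the steps of the FPKM values. Library totals came from these steps with GENCODE M21 exon lengths, at least 87 genes giving 1 total and any unrelated total given by at most 5. A noncoding gene overlaps Ei24 on the opposite strand.

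The fit was limma 3.58.1 (R 4.3.3, trend and robust) on log2(FPKM + 1), with the 3 groups as its only term, two-sided, adjusted over all genes tested, and tested on simulated data. Apaf1, Tnfrsf10b and Eda2r are given without the filter, which for the latter 2 replaces the planned filtered fit. Exact permutation tests used scipy 1.17.1 and are unadjusted unless said. Intervals are 95% and from the fit. No proteins were tabled, so the planned protein sequences are not shown. Gene positions and promoters are RefSeq's on GRCm38.p6, and promoters were matched for 7 of the 9 genes.

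The 9 genes, the other lists and the tests were chosen with earlier results of these data known. All 9 genes are named in every comparison. From each list at most 3 changed genes per direction with the smallest adjusted p could be named, beside ligands and partners. Some genes counted in the lists are not reported here. The genes Cdkn1a, Phlda3, Ccng1 and Mdm2 were set beside single libraries after their values were seen.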

Additional observations from a re-analysis of the deposited data

Results flagged for a closer look

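In 27 groups of 5 values, 4 held a value whose gap to its nearest neighbour was over 0.71 of the range. Chance gives about 1 in 20 groups. Saline 2 had the highest Pidd1 level of its group, 2.88 FPKM against 1.03 to 1.35 in the other saline libraries. It also had the highest Casp8 level, 19.6 FPKM against 13.1 to 15.01. Doxorubicin 1 had the highest Perp level of its group, 67.3 FPKM against 45.8 to 51.6. It also had the highest Ei24 level, 184 FPKM against 108 to 123. Saline 2 was the highest of its group for 50.8% of tested genes, and doxorubicin 1 for 21.9%.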

How the results depend on the processing

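The counts over the 9 genes were recomputed under 47 alternatives, and the calls of single genes under 22 (Apaf1) to 47. The counts of genes that rose were 3 of 8 after cisplatin and 4 of 8 after doxorubicin in the filtered fit, and 2 of 8 were higher after doxorubicin than after cisplatin. Tnfrsf10b and Eda2r were among these 8 through drug libraries alone. Without the filter the counts were 4, 5 and 2 of 9. With the stricter filter (mean of at least 5 FPKM), which left 5 of the genes, the counts were 1, 2 and 1. With a minimum absolute log2 change of 1, 0 genes differed between the drugs. With 1 library left out the counts were 3 in every fit for cisplatin, 4 to 5 for doxorubicin and 2 to 3 between the drugs, and the added gene was Pidd1, without saline 2. The 0 genes lower remained 0 in all of these fits, and 0 reversals of a called gene occurred. Apaf1 after cisplatin had adjusted p from 0.0120 to 0.0439 when single libraries were left out of the fit without filter, and no call at an adjusted p of 0.01. Limma-voom on the recovered reads, chosen after seeing the data, called the same 4, 5 and 2 genes as the fit without filter, with log2 changes of 4.09 for Eda2r and 3.24 for Tnfrsf10b after doxorubicin.

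The labels state no pairing by replicate number. Deviations of same-numbered libraries correlated from -0.553 to 0.0566 between saline and cisplatin, -0.261 to 0.0147 between saline and doxorubicin and -0.0178 to 0.352 between the drugs. Differently numbered libraries reached 0.539, 0.358 and 0.261 in the same order. Between the drugs, libraries 2 and libraries 1 gave 0.352 and 0.286. Whether same-numbered libraries shared handling was not tested. With the replicate number as a block the counts of genes that rose were again 3, 4 and 2 in the filtered fit, and 0 fell. Without the filter they were again 4, 5 and 2, and 0 fell. In the filtered fit the calls over all genes went from 3335 to 2170 after doxorubicin and from 2151 to 1260 between the drugs. The block also ended the calls of Cflar after doxorubicin (adjusted p = 0.0703) and between the drugs (0.101), of Casp9 between the drugs (0.0804), of Sesn1 between the drugs (0.0645) and of Mdm2 after cisplatin (0.0596). Without cisplatin 3 the calls over all genes after cisplatin went from 1170 to 717. Low read numbers limit the saline levels of Eda2r and Tnfrsf10b and the cisplatin level of Eda; reads were not molecules.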

Other observations

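The genes whose levels ran most like those of the members over all 15 libraries were named by their correlation of log2(FPKM + 1), as a description, since the libraries of 1 group share their treatment. For Aen these were 9030617O03Rik (Pearson r of 0.98), Phlda3 (0.979) and Ccng1 (0.974), the last 2 of them from the list of arrest and stress targets. For Eda2r they were Lmna (0.965), which encodes lamins of the nuclear envelope, Gnat1 (0.959) and Psrc1 (0.955). For Fas they were Parp9 (0.966), an interferon-induced gene, Tex10 (0.956) and Klhl26 (0.948).

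Erythroid and B cell transcripts were lower after both drugs. Of 5 tested erythroid markers, 4 fell after each drug, and the sum of 7 was 311 to 513 FPKM after saline, 35.5 to 56.1 after cisplatin and 44.6 to 276 after doxorubicin. Of 4 tested B cell markers, 2 fell after cisplatin and 4 after doxorubicin. After cisplatin Cd79a and Cd79b did not pass (limma adjusted p = 0.0877 and 0.9635). Ms4a1, which did not reach the filter, passed no test in the fit without it. The sums of 5 B cell markers were 6.59 to 9.26, 4.67 to 5.74 and 3.07 to 5.37 FPKM. Of 5 tested markers of bile duct and other epithelium, 1 (Krt19) rose after cisplatin, and 1 (Sox9) rose and 1 (Krt23) fell after doxorubicin. Krt19 reached at most 0.925 FPKM after saline and passed the filter through drug libraries alone. Without the filter 3 of 8 rose after cisplatin, namely Krt7, Krt19 and Cldn7. After doxorubicin Muc1 and Cldn7 then rose and Krt23 fell, while Sox9 was not called. The sums of 8 markers were 27.2 to 41.9 FPKM after saline, 38.9 to 86.7 after cisplatin and 39.0 to 57.9 after doxorubicin. The sums of 8 sinusoidal endothelial markers were 50.6 to 69.1, 19.9 to 49.95 and 28.3 to 55.2 FPKM, with 2 of 8 lower after cisplatin, and 3 of 8 lower and 1 (Lyve1) higher after doxorubicin. Of 8 stellate cell markers 1 and 2 fell, and of 8 hepatocyte markers 2 and 3 fell. Over all tested genes 5.0% fell after cisplatin and 17.2% after doxorubicin, so 2 of 8 and 3 of 8 after doxorubicin stand beside a large share. Without the filter 1 of 8 stellate cell markers fell after each drug, and 1 of 8 endothelial markers fell after cisplatin.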
